A study of Mus musculus with 12 samples.

Results

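The H3K27ac regions over 10 genes of cardiac calcium cycling were examined in adult mouse cardiomyocytes (CMs) with and without RIP140, the transcriptional corepressor encoded by *Nrip1*. The genes were *Ryr2*, *Casq2*, *Trdn*, *Jph2*, *Atp2a2*, *Pln*, *Cacna1c*, *Cacnb2*, *Slc8a1* and *Camk2d*. Their regions were those that overlapped the gene body extended by 5 kb on each side (GENCODE M21, GRCm38), here called the gene window. A total of 169 of the 53754 control regions and 132 of the 45521 csNrip1-/- regions met this rule.

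CMs came from hearts of male csNrip1-/- mice (*Nrip1* f/f Cre+) and Cre-negative littermate controls (*Nrip1* f/f Cre-), aged 10 to 12 weeks. Both genotypes carried the floxed *Nrip1* alleles, and Cre was driven by the Nkx2.5 promoter, which is active from early heart development onward. Each genotype had 3 H3K27ac libraries and 3 IgG libraries, each from 200000 CMs, profiled by CUT&RUN, in which an antibody directs a nuclease to chromatin and the released DNA is sequenced. The files used here hold 1 merged list of enriched regions per genotype, with regions found in at least 2 of 3 replicates, so the values below have no replicate error and no test between genotypes was possible.

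Each heartbeat depends on calcium-induced calcium release. L-type calcium channels in the sarcolemma admit calcium during the action potential, this calcium opens ryanodine receptors on the sarcoplasmic reticulum (SR), and the released calcium activates the myofilaments. Relaxation follows as the SR calcium pump returns calcium to the SR and the sodium-calcium exchanger expels it from the cell. H3K27ac is a histone acetylation found at active promoters and enhancers, and broad stretches of it are typical of genes that define a cell type. The question addressed by the comparison was where H3K27ac-enriched chromatin differed when the corepressor was absent.

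The letters under the regions were read from the GRCm38 genome for the matches to binding sequences of estrogen-related receptors (ERR) and MEF2, both regulators of heart muscle genes. The ERR sequence searched was TCAAGGTCA, and the MEF2 sequence was its usual A/T-rich 10-base consensus, and both strands were read. Regions in 1 list only held 5 ERR matches (4 in csNrip1-/- and 1 in control) and 3 MEF2 matches (2 in csNrip1-/- and 1 in control), at 3 of the 10 genes. Of member regions in the csNrip1-/- list only, 7.50% held an ERR match and 5.00% a MEF2 match, against 5.67% and 5.79% over the whole list. Of those in the control list only, 1.72% held each, against 3.98% and 5.54%. These ERR and MEF2 matches are printed because they lie in chromatin listed in 1 genotype only, with the match in capitals. GATA matches in such regions are not printed and are counted below. Reverse matches in a stretch printed on the plus strand read as the reverse complement.
Ryr2, csNrip1-/- only, ERR, a pair of matches, chr13:12001163-12001294 (plus strand): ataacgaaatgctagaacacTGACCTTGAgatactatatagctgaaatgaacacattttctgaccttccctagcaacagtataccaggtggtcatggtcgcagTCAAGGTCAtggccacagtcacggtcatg
Ryr2, csNrip1-/- only, MEF2, chr13:12033470-12033519 (plus strand): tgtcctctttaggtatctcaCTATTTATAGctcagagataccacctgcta
Ryr2, control only, ERR, chr13:12072702-12072750 (plus strand): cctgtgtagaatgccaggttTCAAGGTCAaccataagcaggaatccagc
Jph2, csNrip1-/- only, ERR, chr2:163342057-163342105 (minus strand): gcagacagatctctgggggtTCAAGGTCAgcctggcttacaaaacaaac
Jph2, csNrip1-/- only, MEF2, chr2:163342680-163342729 (plus strand): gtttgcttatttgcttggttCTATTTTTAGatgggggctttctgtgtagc
Slc8a1, csNrip1-/- only, ERR, chr17:81462394-81462442 (plus strand): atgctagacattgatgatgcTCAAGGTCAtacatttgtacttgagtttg
Slc8a1, control only, MEF2, chr17:81400763-81400812 (plus strand): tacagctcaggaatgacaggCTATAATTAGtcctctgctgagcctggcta

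The following ERR matches lay in regions that covered a transcription start site in both lists, and are shown for comparison. They lay 2587 bp (*Ryr2*), 6267 bp (*Jph2*) and 833 bp (*Slc8a1*) downstream of the 5′ end of the gene, and 1071 bp (*Atp2a2*) and 3074 bp (*Pln*) upstream of it.
Ryr2, both lists, ERR, chr13:12104338-12104386 (plus strand): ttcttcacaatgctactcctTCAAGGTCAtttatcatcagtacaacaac
Jph2, both lists, ERR, chr2:163391706-163391754 (plus strand): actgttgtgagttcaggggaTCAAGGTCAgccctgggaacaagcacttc
Atp2a2, both lists, ERR, chr5:122503276-122503324 (plus strand): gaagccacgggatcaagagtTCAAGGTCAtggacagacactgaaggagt
Pln, both lists, ERR, chr10:53334573-53334621 (minus strand): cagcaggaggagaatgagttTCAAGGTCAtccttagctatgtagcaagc
Slc8a1, both lists, ERR, chr17:81737524-81737572 (minus strand): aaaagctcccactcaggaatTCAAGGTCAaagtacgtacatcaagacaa

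None of the printed stretches overlapped an annotated UTR. The ERR and MEF2 stretches were outside annotated coding exons of their genes. A match is a description of letters, and no factor binding was measured.

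Across the 10 genes, the csNrip1-/- list had fewer and wider regions than the control list. The numbers were 132 and 169, and the median width was 2913.5 bp in csNrip1-/- and 1866 bp in control. Over all regions the median widths were 2291 bp and 1846 bp. The regions covered 617310 bp of the 2838184 bp of gene windows in csNrip1-/- (21.8%) and 562825 bp in control (19.8%), of which 422992 bp lay in both lists. The length in common was 75.2% of the control length and 68.5% of the csNrip1-/- length. For all protein-coding genes with a region the same shares were 76.8% and 73.3%.

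Regions that had at least 1 bp in common with the opposite list were counted as shared. In csNrip1-/-, 40 of 132 regions were in that list only (30.3%, Wilson 95% interval 23.1% to 38.6%), against 21.5% of all regions in the list. In control, 58 of 169 regions were in that list only (34.3%, 27.6% to 41.8%), against 29.5% of all control regions. The intervals cover counting error only, and regions of 1 gene are neighbors and not independent. Of the members, 6 have windows over 100 kb, and over all genes with such windows the shares were 22.2% in csNrip1-/- and 31.4% in control. With regions of at least 1000 bp only, the control share at the members was 22.5%, beside 22.6% of all control regions of that width. The csNrip1-/- share was then 33.6%, beside 21.3% of all csNrip1-/- regions of that width. With regions of every width but without *Ryr2*, the csNrip1-/- share was 25.8%. KO-only and control-only below mean found in the csNrip1-/- list only and in the control list only.

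**Figure D1:**
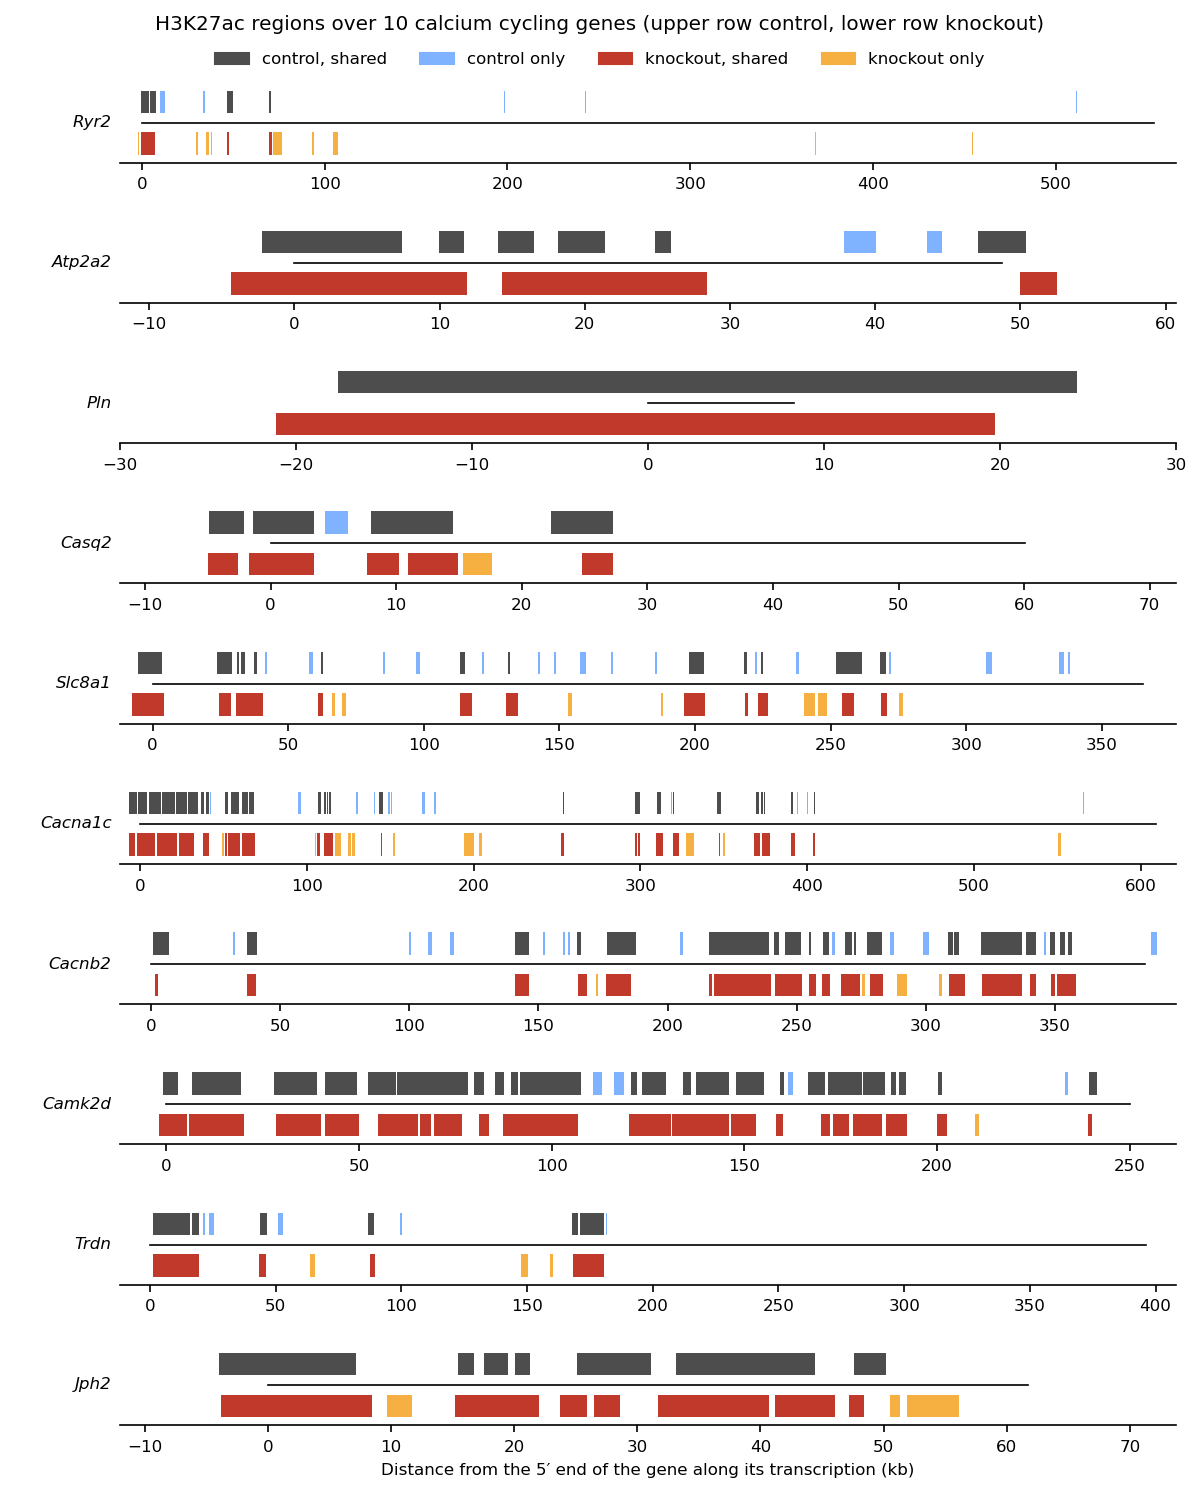
Map of every H3K27ac region at the 10 genes, with distance from the 5′ end of the gene in kb on the x axis, control regions in the upper row and csNrip1-/- regions in the lower row of each panel, and the gene as a black line. Regions in 1 list only are drawn in blue and orange. *Pln* had 1 region in each list, and *Cacna1c* had 39 and 33.

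**Figure D2:**
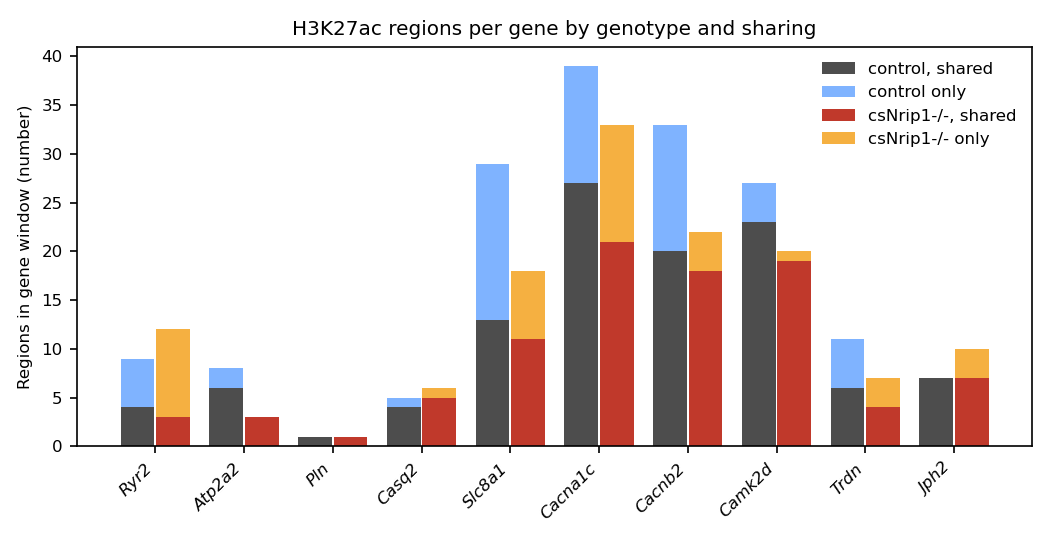
Number of regions in each gene window, control and csNrip1-/- side by side, split into regions shared with the other list and regions in 1 list only. *Ryr2* had 9 KO-only regions of 12, and *Slc8a1* had 16 control-only regions of 29.

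Regions in 1 list only were narrow. Their median width at the members was 1307 bp in csNrip1-/- and 956 bp in control, while shared regions had medians of 4150.5 bp and 2691 bp. The widest KO-only region was 5768 bp and the widest control-only region was 2923 bp. Over the whole lists the median width was 1279 bp for KO-only regions and 1045 bp for control-only regions. By their centers, introns held 37 of the 40 KO-only regions and 55 of the 58 found in control only, as well as 84 of 92 shared csNrip1-/- and 104 of 111 shared control regions.

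Length covered by H3K27ac was compared per gene with a limit of 1.5-fold. None of the 10 genes passed it in either direction, though *Atp2a2* did when regions were assigned to the nearest start site (48008 bp in control and 73347 bp in csNrip1-/-). Among 14443 protein-coding genes with a region, 19.8% were past the limit toward more length in csNrip1-/- and 12.6% toward less. In the 2397 genes with windows over 100 kb these shares were 11.9% and 13.7%. The log2 ratio of csNrip1-/- to control length summed over the members was 0.13, and its median over the 10 genes was 0.11, beside 0.08 for all genes with coverage in both lists and 0.00 for those with windows over 100 kb. Leaving out *Cacna1c* gave a summed log2 ratio of 0.09. The median was 0.00 without any single one of *Ryr2*, *Atp2a2*, *Slc8a1*, *Cacna1c* and *Jph2*. It was 0.21 without any single one of the other members.

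**Figure D3:**
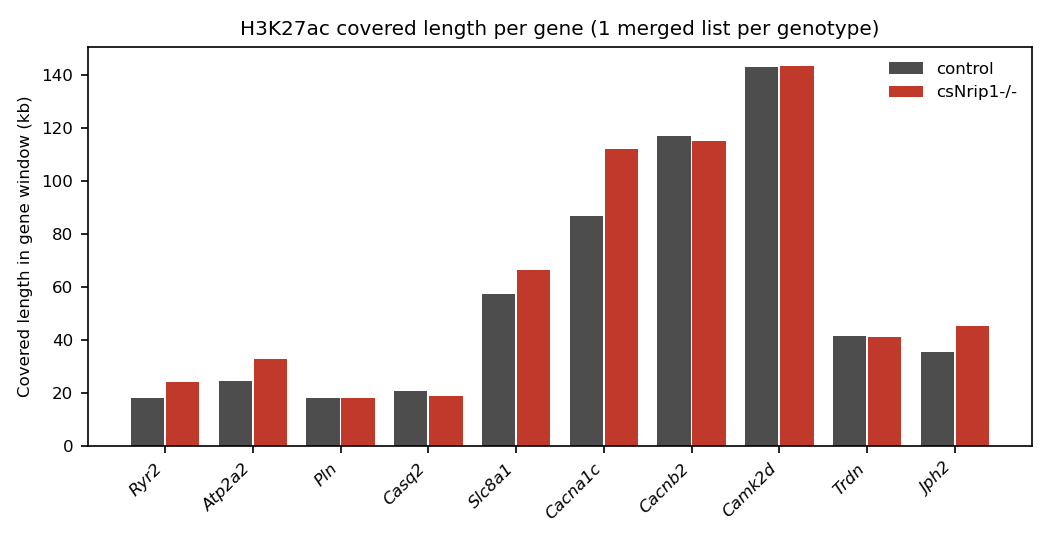
Length covered by H3K27ac regions in each gene window in kb, with 1 bar per merged list and no error bars because there is 1 list per genotype. *Cacna1c* showed the largest difference, 111805 bp in csNrip1-/- against 86815 bp in control, and *Pln* was 18321 bp in both.

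**Figure D4:**
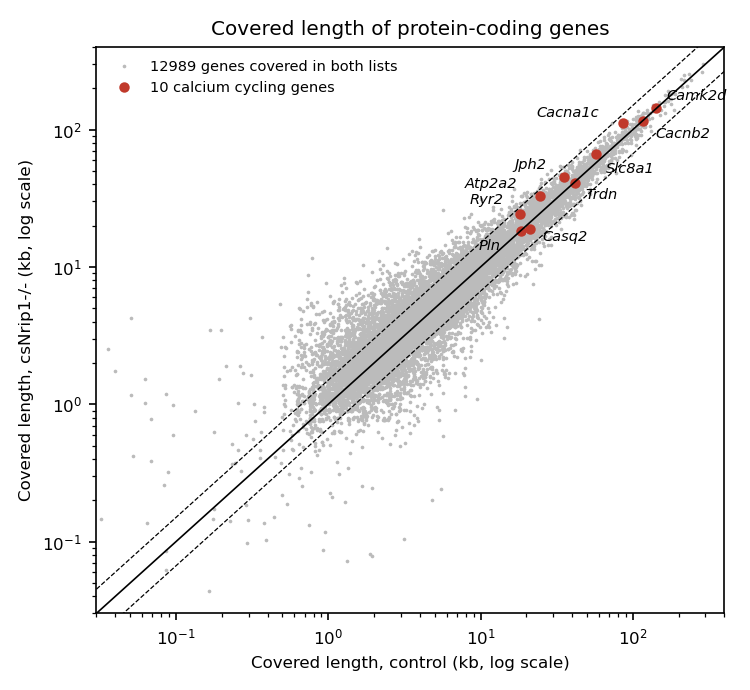
Covered length in csNrip1-/- against control for the 12989 protein-coding genes covered in both lists, on log axes in kb, with the diagonal as a solid line and the 1.5-fold limits dashed. All 10 calcium cycling genes lie between the dashed lines, from 18112 bp to 142783 bp in control.

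The SR release machinery was led by *Ryr2* (ENSMUSG00000021313), which encodes the ryanodine receptor, the calcium release channel of the SR. *Ryr2* lies on the minus strand at chr13:11553102-12106945. Its window held 9 control regions with 18112 bp and 12 csNrip1-/- regions with 24112 bp, a ratio of 1.33. The share of the window covered was 3.21% in control and 4.28% in csNrip1-/-, the lowest of the 10 genes in both lists.

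The *Ryr2* regions had the least length in common between the lists of the 10 genes. Of the control length, 46.8% was covered in csNrip1-/-, and of the csNrip1-/- length, 35.2% was covered in control. Of the 9 control regions 5 were control-only, and of the 12 csNrip1-/- regions 9 were KO-only. The start of the gene was covered in both lists, by a 7623-bp region in csNrip1-/- and by a control region of 4407 bp. One shared locus of *Ryr2* was wider in csNrip1-/- (1407 bp against 898 bp) and another was narrower (1024 bp against 3260 bp).

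The widest KO-only region of *Ryr2* spanned 5138 bp (chr13:12030030-12035167) in an intron, 74347 bp from the 5′ end, and holds the MEF2 match printed above. The next, of 2678 bp at chr13:11999572-12002249, lay 106035 bp from the 5′ end and holds the pair of ERR matches. No control region lay within 34324 bp of it. The widest control-only region among all members was also in *Ryr2*, 2923 bp at chr13:12094231-12097153, and the control-only region with an ERR match was 1150 bp. A KO-only region of 655 bp lay 1872 bp upstream of the gene.

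*Casq2* (ENSMUSG00000027861, chr3:102086415-102146514) encodes calsequestrin, which buffers calcium inside the SR. It had 5 control regions with 21010 bp and 6 csNrip1-/- regions with 19048 bp, a ratio of 0.907. The direction turned with the window extended by 50 kb (log2 ratio 0.12) and with nearest start sites (0.13), against -0.14 here. The widest region was 6569 bp in control and 5235 bp in csNrip1-/-, and the start site was under regions of 4854 bp and 5235 bp. One shared locus was narrower in csNrip1-/- (2494 bp against 4939 bp). The single KO-only region (2307 bp) and the single control-only region (1816 bp) were both intronic, with gaps of 774 bp and 858 bp to the nearest region of the other list.

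*Trdn* (ENSMUSG00000019787, chr10:33080554-33476709) encodes triadin, which links calsequestrin to the ryanodine receptor. Its covered length was 41551 bp in control and 41051 bp in csNrip1-/-, from 11 and 7 regions. The start sites near the 5′ end were under 1 wide region in each list, 14858 bp in control and 18314 bp in csNrip1-/-, the widest of the gene. The farthest upstream start site (Trdn-208) was covered in neither list. None of the 4 shared loci of *Trdn* passed the 1.5-fold limit. KO-only regions numbered 3 and control-only regions 5, the widest 2796 bp and 2168 bp.

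*Jph2* (ENSMUSG00000017817, minus strand, chr2:163336242-163397993) encodes junctophilin, which holds the SR close to the sarcolemma. Regions covered 49.3% of its window in control (35339 bp) and 63.1% in csNrip1-/- (45293 bp), a ratio of 1.28. It had no control-only region among 7 and 3 KO-only regions among 10. The start sites were under regions of 11105 bp in control and 12276 bp in csNrip1-/-. Its widest control region was an intronic one of 11225 bp. The 4148-bp KO-only region at chr2:163341899-163346046, in an intron 54021 bp from the 5′ end, holds the ERR and the MEF2 match of *Jph2* printed above.

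Reuptake into the SR depends on *Atp2a2* (ENSMUSG00000029467, minus strand, chr5:122453513-122502225), which encodes the SR calcium pump SERCA2. Its 8 control regions covered 24683 bp and its 3 csNrip1-/- regions covered 32871 bp, 42.0% and 56.0% of the window, a ratio of 1.33. The start site region, the widest in both lists, was 9651 bp in control and 16216 bp in csNrip1-/-. In the body of the gene, 1 csNrip1-/- region of 14127 bp lay over 3 control regions with 6871 bp in all. No KO-only region was found, and 2 control-only regions (2162 bp and 994 bp) lay toward the 3′ end. At this gene the csNrip1-/- list had fewer regions and more covered length.

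*Pln* (ENSMUSG00000038583, chr10:53337667-53345987) encodes phospholamban, the inhibitor of the SR calcium pump. A single region covered the whole window of 18321 bp in each list. These regions were 41990 bp in control and 40830 bp in csNrip1-/-, and only 20 control and 33 csNrip1-/- regions of the whole lists were wider. *Pln* lies inside the gene *Cep85l* on the other strand, so the region cannot be assigned to *Pln* alone. Its covered length was therefore at the limit of the window in both lists.

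Calcium entry runs through the L-type channel, whose pore is encoded by *Cacna1c* (ENSMUSG00000051331, minus strand, chr6:118587240-119196418). Its 39 control regions covered 86815 bp and its 33 csNrip1-/- regions covered 111805 bp, a ratio of 1.29 and 24990 bp more in csNrip1-/-. Each list had 12 regions of its own. Of 17 shared loci, 8 were wider and 2 were narrower in csNrip1-/-. The largest ratio was at chr6:118873336-118876884, where the region was 649 bp in control and 3549 bp in csNrip1-/-.

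The 5′ start sites of *Cacna1c* were under a region of 5541 bp in control and 10744 bp in csNrip1-/-, and the widest regions of the gene were 7793 bp and 11917 bp. The 2 widest KO-only regions of *Cacna1c*, 5768 bp at chr6:118996422-119002189 and 4797 bp at chr6:118864013-118868809, were intronic and held no ERR or MEF2 match. The group of start sites from 87845 to 88443 bp inside the gene was covered in neither list. The gene *Dcp1b* on the other strand, at chr6:119175253-119221616, overlaps the 5′ part of the window. The regions at the 5′ start sites of *Cacna1c* lie inside *Dcp1b* in both lists. The widest region of each list covers the position where *Dcp1b* begins. Neither the start site regions nor the widest regions can therefore be assigned to *Cacna1c* alone.

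*Cacnb2* (ENSMUSG00000057914, chr2:14603088-14987908) encodes a regulatory subunit of the same channel. It had 33 control regions with 116916 bp and 22 csNrip1-/- regions with 115155 bp, and 13 of the former and 4 of the latter were in 1 list only. The widest region lay over the start site of Cacnb2-214, at 23205 bp in control and 22140 bp in csNrip1-/-. Of 16 shared loci, 5 were wider and 2 were narrower in csNrip1-/-. By ratio, the largest narrowing of a shared locus among the members was at its 5′ end, where a control region of 6389 bp faced a csNrip1-/- region of 1232 bp. The widest control-only region of the gene was 2438 bp, at chr2:14901771-14904208.

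*Slc8a1* (ENSMUSG00000054640, minus strand, chr17:81373105-81738377) encodes the sodium-calcium exchanger. It had 29 control regions with 57295 bp and 18 csNrip1-/- regions with 66420 bp, a ratio of 1.16. Control-only regions numbered 16, the most of any member, and KO-only regions 7. The region at the 5′ start site was 8679 bp in control and 11727 bp in csNrip1-/-. Of 11 shared loci, 5 were wider and 1 was narrower in csNrip1-/-.

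The widening at *Slc8a1* included loci that were narrow in control. A control region of 890 bp faced a csNrip1-/- region of 4419 bp, and one of 782 bp faced 3737 bp. At chr17:81697572-81707540, 1 csNrip1-/- region of 9969 bp lay over 3 control regions with 3392 bp. The widest control region (9723 bp) was the one that was narrower in csNrip1-/- (4202 bp). The widest KO-only region was 4143 bp (chr17:81494222-81498364) and the widest control-only region was 2406 bp (chr17:81578448-81580853).

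*Camk2d* (ENSMUSG00000053819, chr3:126596302-126846326) encodes the calcium/calmodulin-dependent kinase that phosphorylates phospholamban and the ryanodine receptor. It had the greatest covered length of the 10 genes, 142783 bp in control and 143234 bp in csNrip1-/-, or 54.9% and 55.1% of its window. The lists had 81.5% of the control length and 81.3% of the csNrip1-/- length in common. The region at its 5′ start sites was 4082 bp in control and 7371 bp in csNrip1-/-. Widest regions were 18533 bp and 19680 bp. Only 1 KO-only region was found, of 1094 bp, and 4 control-only regions, the widest of 2536 bp (chr3:126712456-126714991) and 2235 bp (chr3:126707115-126709349).

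At the loci in both lists, more were wider than narrower in csNrip1-/-. Of 79 shared loci at the members, 25 (31.6%) were over 1.5-fold wider in csNrip1-/- and 9 (11.4%) were narrower, against 17.3% and 10.3% of the 32649 shared loci of the series. Loci of 1 gene are neighbors and not independent. Of the 25 wider loci, 8 were at *Cacna1c*, 5 at *Slc8a1* and 5 at *Cacnb2*, and none at *Pln*, *Casq2* or *Trdn*. Loci of long gene windows were not set apart as a background. The median log2 ratio was 0.15 at the members and 0.08 over all shared loci. At 25 loci (31.6%) a csNrip1-/- region lay over several control regions, and at 11 (13.9%) a control region lay over several csNrip1-/- regions, against 12.7% and 8.01% of all shared loci. Shared regions at the members were wider than in the whole lists. Their medians were 4150.5 bp against 2694 bp in csNrip1-/- and 2691 bp against 2404 bp in control. The part of region width in these shares was not tested. With regions of at least 1000 bp only, 15 of 67 member loci were wider in csNrip1-/- (22.4%), against 15.6% of all shared loci, and 9 were narrower (13.4%), against 9.05%.

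**Figure D5:**
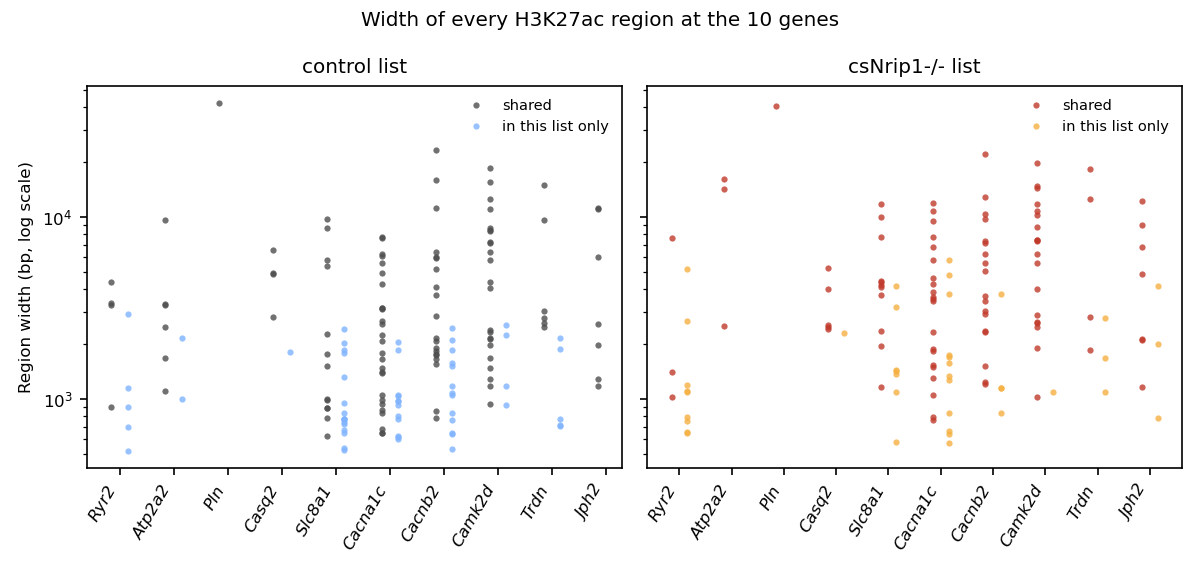
Width in bp, on a log axis, of each of the 169 control and 132 csNrip1-/- regions at the 10 genes, with shared regions and regions in 1 list only side by side. Regions in 1 list only reach 2923 bp in control and 5768 bp in csNrip1-/-, while shared regions reach 41990 bp and 40830 bp.

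Most members held regions of 1 list only. KO-only regions were found at 8 of 10 genes and control-only regions at 8 of 10. Among all genes with a region these shares were 35.2% and 39.2%, and among those with windows over 100 kb they were 65.8% and 78.3%. *Pln* had neither kind. *Jph2* had KO-only regions without control-only ones, and *Atp2a2* the opposite.

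Start sites were called covered if a region overlapped 1000 bp upstream to 100 bp downstream. All 10 members had a covered start site in both lists, against 48.7% of protein-coding genes in control and 51% in csNrip1-/-. Of 51 distinct start sites of protein-coding transcripts, 33 were covered in both lists, 14 in neither, 3 in csNrip1-/- only and 1 in control only. Over all protein-coding genes, 5.54% of start sites were covered in csNrip1-/- only and 2.97% in control only. The 4 that differed were at *Cacnb2*, *Cacna1c* and *Slc8a1*. With a promoter from 2000 bp upstream to 500 bp downstream, no start site was covered in control only.

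The 120 bases before each of these 4 start sites are shown because the lists differed at their promoter windows, with CG dinucleotides in capitals. Covered refers to the promoter window. The printed bases of Cacna1c-209 and Slc8a1-205 lay in no region of either list.
Cacnb2, Cacnb2-203, covered in control only, chr2:14604186-14604305 (plus strand): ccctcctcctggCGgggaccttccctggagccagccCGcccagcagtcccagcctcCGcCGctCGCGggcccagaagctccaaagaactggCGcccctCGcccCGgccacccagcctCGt
Cacnb2, Cacnb2-212, covered in csNrip1-/- only, chr2:14960656-14960775 (plus strand): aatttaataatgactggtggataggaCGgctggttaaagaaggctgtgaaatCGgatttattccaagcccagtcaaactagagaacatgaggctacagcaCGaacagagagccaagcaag
Cacna1c, Cacna1c-209, covered in csNrip1-/- only, chr6:119080008-119080127 (minus strand): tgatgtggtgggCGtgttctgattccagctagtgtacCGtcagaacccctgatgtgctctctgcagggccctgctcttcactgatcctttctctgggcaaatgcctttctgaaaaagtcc
Slc8a1, Slc8a1-205, covered in csNrip1-/- only, chr17:81670188-81670307 (minus strand): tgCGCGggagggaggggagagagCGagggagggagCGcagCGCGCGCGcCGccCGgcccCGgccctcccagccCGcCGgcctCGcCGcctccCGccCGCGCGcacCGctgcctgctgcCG

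These stretches held 10, 3, 2 and 21 CG dinucleotides in the order shown. RefSeq promoters of the GRCm38 build had a median of 3 in the same 120 bases. The promoter window of Cacnb2-203 lay 265 bp from the nearest csNrip1-/- region, and that of Cacnb2-212, where the printed bases overlap a coding exon, lay 272 bp from the nearest control region. The promoter window of Slc8a1-205 overlapped a KO-only region of 1091 bp, and that of Cacna1c-209 overlapped a csNrip1-/- region of 5789 bp. Both of these regions lay farther upstream than the printed bases.

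RefSeq promoter sequences (250 bases before to 50 after the start) matched 8 of the 10 members, with 12 promoters. None of the 12 held the ERR or MEF2 sequence, which were found in 0.423% and 0.557% of all 32851 promoters. The GATA sequence AGATAAG, bound by cardiac GATA factors, was found in 1 of the 12, at *Slc8a1*, and in 3.04% of all promoters. The stretch before that start site is shown with the GATA match in capitals, 68 bases upstream of the start, inside the region that covered the start in both lists.
Slc8a1, 250 bases before the start, chr17:81738388-81738637 (minus strand): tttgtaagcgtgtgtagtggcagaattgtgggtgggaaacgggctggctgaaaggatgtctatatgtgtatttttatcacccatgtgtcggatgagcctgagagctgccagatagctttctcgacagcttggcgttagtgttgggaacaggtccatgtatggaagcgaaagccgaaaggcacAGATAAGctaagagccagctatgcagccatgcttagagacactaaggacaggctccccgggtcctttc

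Across the whole regions of the members, ERR matches occurred 3.10 times per 100 kb in csNrip1-/- and 3.06 times in control, against 3.36 and 3.27 over all regions. The densities of MEF2 matches were 3.73 and 4.42, against 3.61 and 3.79. GATA matches occurred 19.2 and 20.1 times per 100 kb at the members and 15.1 and 15.3 times over all regions. In KO-only regions of the members they occurred 14.7 times per 100 kb (11 matches), against 15.9 in all KO-only regions. In control-only regions of the members they occurred 27.1 times (19 matches), against 16.8 in all control-only regions. A direct repeat of AGGTCA with 4 bases between its copies, a thyroid hormone receptor sequence, had no match at the members. An ERR match was held by 3 of 40 KO-only regions (7.50%, Wilson 95% interval 2.58% to 19.9%) and by 1 of the 58 found in control only (1.72%, 0.305% to 9.14%), against 5.67% and 3.98% of such regions in the whole lists. The intervals of the members overlap.

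Other genes of calcium handling were taken from a list of 55 SR, sarcolemmal and mitochondrial genes and paralogs of the members, of which 54 were matched and 49 had a region. Covered length was past the 1.5-fold limit toward csNrip1-/- at 10 of the 49 and toward control at 8, beside the 19.8% and 12.6% of all genes given above. The median log2 ratio of the list was -0.02. A start site was covered at 32 genes in control and 34 in csNrip1-/-.

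Among the other SR proteins, 3 of 15 genes with a region were past the limit toward csNrip1-/- and 3 toward control. *Hrc*, a histidine-rich calcium binding protein of the SR, had 4066 bp in control and 7754 bp in csNrip1-/-. *Fkbp1b*, which encodes a protein bound to the ryanodine receptor, had 1506 bp and 3456 bp. In the other direction, *Mrln*, which encodes the SERCA inhibitor myoregulin of skeletal muscle, had 1319 bp in control and 72 bp in csNrip1-/-. These 72 bp are the end of a 1535-bp region that crosses the window border, and with full lengths *Mrln* was not past the limit. *Tmem38b*, a cation channel of the SR, had 12536 bp and 7324 bp.

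Of the sarcolemmal genes, 3 of 11 were past the limit toward csNrip1-/- and 1 toward control. *Fxyd1*, which encodes phospholemman, had 3686 bp in control and 6948 bp in csNrip1-/-. *Stim1*, the calcium sensor of store-operated entry, had 14247 bp and 6266 bp, with 9 control-only and 2 KO-only regions. Of the 6 mitochondrial genes with a region, none was past the limit toward csNrip1-/-.

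Of the 17 paralogs of the members with a region, 4 were past the limit toward csNrip1-/- and 3 toward control. *Atp2a1*, the SERCA pump of fast skeletal muscle, had 2049 bp in control and 5357 bp in csNrip1-/-, and *Jph3*, a junctophilin of neurons, had 1199 bp and 3092 bp. *Atp2a3* had 3420 bp and 615 bp inside the window, with a region of each list crossing its border, and 8866 bp and 5153 bp in full length. *Camk2b* had 10289 bp and 6043 bp. *Ryr1*, the skeletal muscle ryanodine receptor, had 907 bp in control and none in csNrip1-/-, while *Slc8a3* and *Cacnb3* had none in control and *Cacna1s* had none in either list. *Ryr3*, *Slc8a2*, *Cacnb1*, *Casq1*, *Camk2a*, *Camk2g*, *Cacnb4*, *Cacna1d*, *Jph1* and *Jph4* had ratios from 0.728 to 1.11. At *Jph4* a csNrip1-/- region crosses the window border. With full lengths *Jph4* had 1865 bp in control and 3401 bp in csNrip1-/- and was past the limit.

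The lists came from isolated CMs. Start sites of 10 of 10 cardiomyocyte marker genes, such as *Myh6* and *Tnnt2*, were covered in both lists. Start sites of 6 of 7 endothelial markers were covered in each list, of 2 of 8 fibroblast markers in control and none in csNrip1-/-, and of none of 6 macrophage markers. Covered length summed over the 7 endothelial markers was 106991 bp in control and 118808 bp in csNrip1-/-, over the 8 fibroblast markers 4496 bp and 834 bp, and over the 6 macrophage markers 27997 bp and 37718 bp, nearly all of it at *Cx3cr1*. Among the fibroblast markers, *Col1a2*, *Dcn* and *Postn* were covered in neither list. The part of other cells in the values of the calcium cycling genes was not tested.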

How the data were processed

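H3K27ac and IgG CUT&RUN libraries of CMs from both genotypes made up 12 samples, in 4 groups of 3. Per the submitters' processing notes and the study's methods, the authors used bowtie2 2.4.2 to align 40-bp paired reads to GRCm38, dropped duplicates with samtools, called enriched regions per replicate against IgG with Homer 4.11.1, and merged the regions found in at least 2 of 3 replicates. The authors deposited these lists as region start and end positions in bp, with a score that is the same for every region and was not used. No signal or tag counts per library were analysed here, so depth is unknown, and a difference in signal inside a region present in both genotypes is not seen. The authors' comparisons of tag counts were not used. The number of columns left without a sample was 0.

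Positions were read as BED, with starts counted from 0, and are printed counted from 1. Regions outside chromosomes 1 to 19, X and Y were left out (21 control and 14 csNrip1-/- regions). Covered length was clipped to the gene window. Genes were called past a 1.5-fold limit, with coverage against none counted as past it. Shares carry Wilson 95% intervals. Promoters ran from 1000 bp upstream to 100 bp downstream. Motifs were searched over full regions in GRCm38.p6. Overlap, covered length and motif counting were checked on simulated regions and sequences. Python 3.11.15, numpy 2.4.6, scipy 1.17.1, pysam 0.24.0 and matplotlib 3.10.9 were used.

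The members and gene lists were chosen with earlier results of these data known. Named were all 10 members, the 5 widest regions of each list that had no counterpart in the other, the widest and the start site regions of each member, the paralogs, and at most 5 listed genes in each direction with at least 1000 bp covered in 1 list. One listed gene is not reported here. Other regions and sequences named were chosen after their values were seen. Alternatives changed the overlap rule, the region widths kept, the gene window, the fold limit, the promoter and the motif search.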

Additional observations from a re-analysis of the deposited data

How the results depend on the processing

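No paired analysis was possible because each genotype has 1 merged list, and for the same reason no replicate could be left out. The limits are that the lists hold no depth, no signal and no error between mice. The summed log2 ratio of covered length stayed above 0 in the alternatives run, within 0.1 of 0.13. In shares of member regions, the KO-only share of 30.3% was 44.7% when 50% of the region had to overlap and 64.4% with a reciprocal 50% (29.2% and 42.4% of all csNrip1-/- regions). It was 33.6% with regions of at least 1000 bp and 35.6% with equal numbers of the widest regions (21.3% and 25.2% of all). The control-only share of 34.3% was 42.6% and 72.2% under the same overlap rules (34.4% and 51.2% of all control regions). It was 22.5% with regions of at least 1000 bp and 24.8% with equal numbers of the widest regions (22.6% and 22.0% of all). Members past the limit toward csNrip1-/- were 0, but 1 with nearest start sites and 4 at a lower limit, a log2 ratio of 0.32 (*Ryr2*, *Atp2a2*, *Cacna1c* and *Jph2*). Of the shared loci, 25 were wider in csNrip1-/-, 15 with regions of at least 1000 bp and 14 at 2-fold, and 9 were narrower, 14 at the lower limit. No share over all genes or all loci is given with nearest start sites, at the lower limit or at 2-fold. The counts at these settings therefore have no background.

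In the calcium handling list, 10 genes past the limit toward csNrip1-/- became 16 at the lower limit and 5 at 2-fold, and 8 toward control became 5 at 2-fold, 5 with nearest start sites and 1 with windows of 50 kb. With full lengths, an alternative added after seeing the data, they were 12 and 7. No share of all genes past the limit is given at these other settings, so these counts have no background. Of the 49 listed genes with a region, 27 held a KO-only region (55.1%) and 26 a control-only one (53.1%). These shares were 35.2% and 39.2% of all genes, and 65.8% and 78.3% of genes with windows over 100 kb. The listed genes were not matched to others by window length. With windows of 50 kb the listed genes numbered 43 (84.3%) and 40 (78.4%) of 51, against 58.9% and 64.9% of all genes. The 1 start site covered in control only became 0 with the wider promoter, and the 3 covered in csNrip1-/- only became 1 when the base itself had to be covered and 1 with basic transcripts. In the central 200 bp, control regions with a match numbered 0 for ERR, 4 for MEF2 and 3 for GATA, against 18, 22 and 64 over the full length, and csNrip1-/- regions numbered 0, 2 and 5, against 18, 22 and 63. Over all regions, the central 200 bp held a match in 0.660%, 1.10% and 3.14% of control and 0.672%, 1.05% and 3.02% of csNrip1-/- regions. With 1 mismatch allowed, ERR matches were held by 47 of 169 control (27.8%) and 54 of 132 csNrip1-/- regions (40.9%), against 25.5% and 29.9% of all regions. Per 100 kb, these matches numbered 11.6 in control and 12.7 in csNrip1-/- at the members, against 12.4 and 12.7 over all regions. The central window and the allowed mismatch change the counts by their own construction. For the other changes listed the cause was not tested. Per gene, the log2 ratios of *Ryr2*, *Atp2a2*, *Slc8a1*, *Cacna1c* and *Jph2* were above 0 in 6 of 6 alternatives. Those of *Casq2*, *Cacnb2*, *Camk2d*, *Trdn* and *Pln* took both signs across the alternatives.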
